A study of Mus musculus with 16 samples.

Results

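The genotype comparison in the aortic valve set 4 mutant libraries against 4 wild-type libraries, 8 of the 16 libraries in the series. The members were chosen by their labels: aortic valve tissue, either genotype. Every library came from mouse embryos of C57BL/6 background at stage E14.5 (embryonic day), and the tissue was cut from the heart by laser. The mutants carried a floxed Jag1 allele together with Nkx2.5-Cre, a recombinase under the control of the cardiac gene Nkx2-5, which removes floxed sequence in cells where that control is active or was active earlier. The other 8 libraries, 4 of each genotype, are from the pulmonary valve. The labels give neither the number of floxed copies nor the Cre and floxed status of the wild-type embryos, and they do not say whether a library holds 1 embryo. Unless the controls carried it too, effects of the Cre and of Jag1 loss cannot be told apart. All aortic libraries belong to 1 preparation batch. In each of 4 litters, 1 mutant and 1 wild-type aortic library carry the same replicate number, so the libraries also form 4 litter pairs.

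Jag1 is a membrane-bound ligand that activates Notch receptors on neighbouring cells. Activated receptors are cut by ADAM proteases and then by the gamma-secretase complex, and the freed intracellular part joins the DNA-binding protein Rbpj to switch on target genes such as those of the Hes and Hey families of repressors. In the developing outflow valves this pathway acts in the endocardium, its underlying mesenchyme and the neural crest-derived and muscle cells next to them. People with reduced JAG1 function can have outflow tract and valve defects.

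The deposited values are read counts per gene, scaled to a common library size, called normalised counts below. Of 13964 genes, 13813 had a value of at least 1 in 4 or more of the 8 libraries and were tested. The 8 libraries held 4.98 to 8.68 M reads (M, megareads), with means of 6.76 ± 1.47 M (SD, n = 4) in wild type and 7.43 ± 1.22 M (SD, n = 4) in mutants. Log2 differences are mutant minus wild type of log2(normalised count + 1), which understates the change of low genes, and SE is their standard error from limma. Replicates correlated at r = 0.786 to 0.932 over 12 pairs of the same group. Xist, expressed from the inactive X chromosome, was near 0 in 1 library of each group (wild type 4 and mutant 3) and 389 or more in the others.

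Transcripts of the targeted gene itself were scarcer in all 4 mutants. Jag1 (ENSMUSG00000027276, protein-coding; chromosome 2, 137081456 to 137116644, minus strand, GRCm38) is given first. Wild-type libraries 1 to 4 gave 20.2, 54.7, 39.7 and 18.8 normalised counts, and mutant libraries 1 to 4 gave 9.90, 11.4, 5.93 and 10.2. The wild-type values spread more widely than the mutant values, and the groups did not overlap. The mutant mean was 28.1% of the wild-type mean, and the log2 difference was -1.62 (SE 0.40). An exact two-sided permutation test gave p = 0.0286, the smallest that 70 assignments allow. The 4 litter pairs differed by -0.96, -2.16, -2.55 and -0.82 on the log2 scale, so pairs 2 and 3 showed the wider gap. Across all tested genes Jag1 had the smallest p of those lower in mutants (limma, unadjusted p = 0.00193), but its adjusted p was 1.0, and 0.782 with the litter as a block.

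No gene passed the threshold. With limma, 0 of 13813 genes passed an adjusted p of 0.05 (0.0%, with 0.9997 as the smallest). The unadjusted p was under 0.05 for 198 genes (1.43% of those tested), 112 higher (0.811%) and 86 lower (0.623%) in mutants. With the litter as a block 0 genes passed as well (smallest adjusted p = 0.137), and 519 genes (3.76%) had an unadjusted p under 0.05, 345 of them higher. edgeR and DESeq2 on the recovered reads also called 0 genes, with 186 and 266 at an unadjusted p under 0.05. The genes named below are therefore described by their values, and none of their differences is called. In tissue libraries, fewer cells of a type and less RNA per cell cannot be told apart.

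Among the ligands other than Jag1, none had groups that separated. Jag2, a second ligand of the Jagged family, ranged from 0.783 to 6.79 in wild type and from 1.39 to 3.76 in mutants. Dll1, a Delta-type ligand, ranged from 1.33 to 15.8 in wild type and from 0.371 to 19.5 in mutants, with the higher value in the mutant in 3 of 4 pairs. Dlk1, a Delta-like protein that lacks the domain used to bind Notch in the classical way, ranged from 3.29 to 104 in wild type and from 3.27 to 59.3 in mutants. Dll3 and Dll4 were not among the tested genes. The 4 tested ligands therefore held 1 gene with an unadjusted p under 0.05, Jag1 itself, and a median log2 difference of 0.03. Over all genes that median was 0.02, and 52.8% of genes lay above 0.

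Notch1 and Notch2, the receptors with the most signal, differed more between libraries of 1 group than between groups. Notch1 was 48.1, 286, 38.8 and 301 in wild-type libraries and 38.6, 177, 128 and 304 in mutant libraries. Its low values fell in wild type 1 and 3 and in mutant 1, and the groups overlapped throughout. Notch3, a receptor of vascular smooth muscle and pericytes, was 14.4, 71.0, 15.7 and 51.8 in wild type, against 8.91, 19.4, 27.4 and 31.7 in mutants (log2 -0.59, SE 0.56). Notch4, an endothelial receptor, was 0.679, 1.57, 1.19 and 11.2 in wild type, against 3.34, 14.6, 5.42 and 8.11 in mutants. Only wild type 4 reached the level of the mutants, and 3 of 4 pairs were higher in the mutant (log2 1.28, SE 0.67, unadjusted p = 0.0816, or 0.0300 with the litter block).

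The target genes split by member. Of 8 tested Notch target genes, 5 lay below 0 and 3 above (median log2 difference -0.21), and 1 had an unadjusted p under 0.05. Hey1, Heyl and Hes1, all repressors of the basic helix-loop-helix class, were lower in the mutant in 4 of 4 litter pairs. Over all genes, 694 (5.02%) were lower in the mutant in 4 of 4 pairs and 826 (5.98%) were higher. Hey1 (ENSMUSG00000040289, chromosome 3, 8663359 to 8667256, minus strand) was 51.6, 64.9, 53.5 and 32.8 in wild type, against 32.4, 21.1, 34.6 and 13.7 in mutants. Only wild type 4, the lowest of its group, overlapped the mutants. Its log2 difference was -1.01 (SE 0.34, unadjusted p = 0.0125, or 0.00163 with the litter block), and the pairs differed by -0.65, -1.57, -0.62 and -1.21.

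Heyl (ENSMUSG00000032744, chromosome 4, 123233556 to 123249875, plus strand) was 59.5, 71.0, 66.5 and 37.0 in wild type, against 15.7, 63.7, 50.6 and 27.2 in mutants. The groups overlapped, and most of the mean difference came from pair 1 (-1.86), against -0.15, -0.39 and -0.43 in the others. Its log2 difference was -0.71 (SE 0.41, unadjusted p = 0.113, or 0.0253 with the litter block). Hes1 was 37.1, 20.2, 30.8 and 13.7 in wild type, against 34.2, 16.8, 22.5 and 11.9 in mutants, a small difference in each litter (log2 -0.25, SE 0.40, unadjusted p = 0.55). Nrarp, a feedback inhibitor of Notch signalling, was 17.8, 9.40, 34.5 and 17.5 in wild type, against 25.4, 12.8, 12.4 and 2.42 in mutants, higher in the mutant in pairs 1 and 2 and lower in pairs 3 and 4.

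Hey2, the third Hey repressor, was 10.6, 97.8, 15.3 and 104 in wild type, against 14.6, 65.0, 40.2 and 127 in mutants, with the low values in wild type 1 and 3 and mutant 1. Efnb2, the arterial ephrin ligand, was 99.0, 215, 80.2 and 164 in wild type, against 175, 162, 131 and 363 in mutants. It was higher in the mutant in 3 of 4 pairs (log2 0.56, SE 0.37, unadjusted p = 0.161, or 0.0285 with the litter block), and the groups overlapped. Snai1 and Snai2, repressors active in endocardial cells that turn into mesenchyme, had log2 differences of 0.24 (SE 0.41) and -0.17 (SE 0.36).

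**Figure D1:**
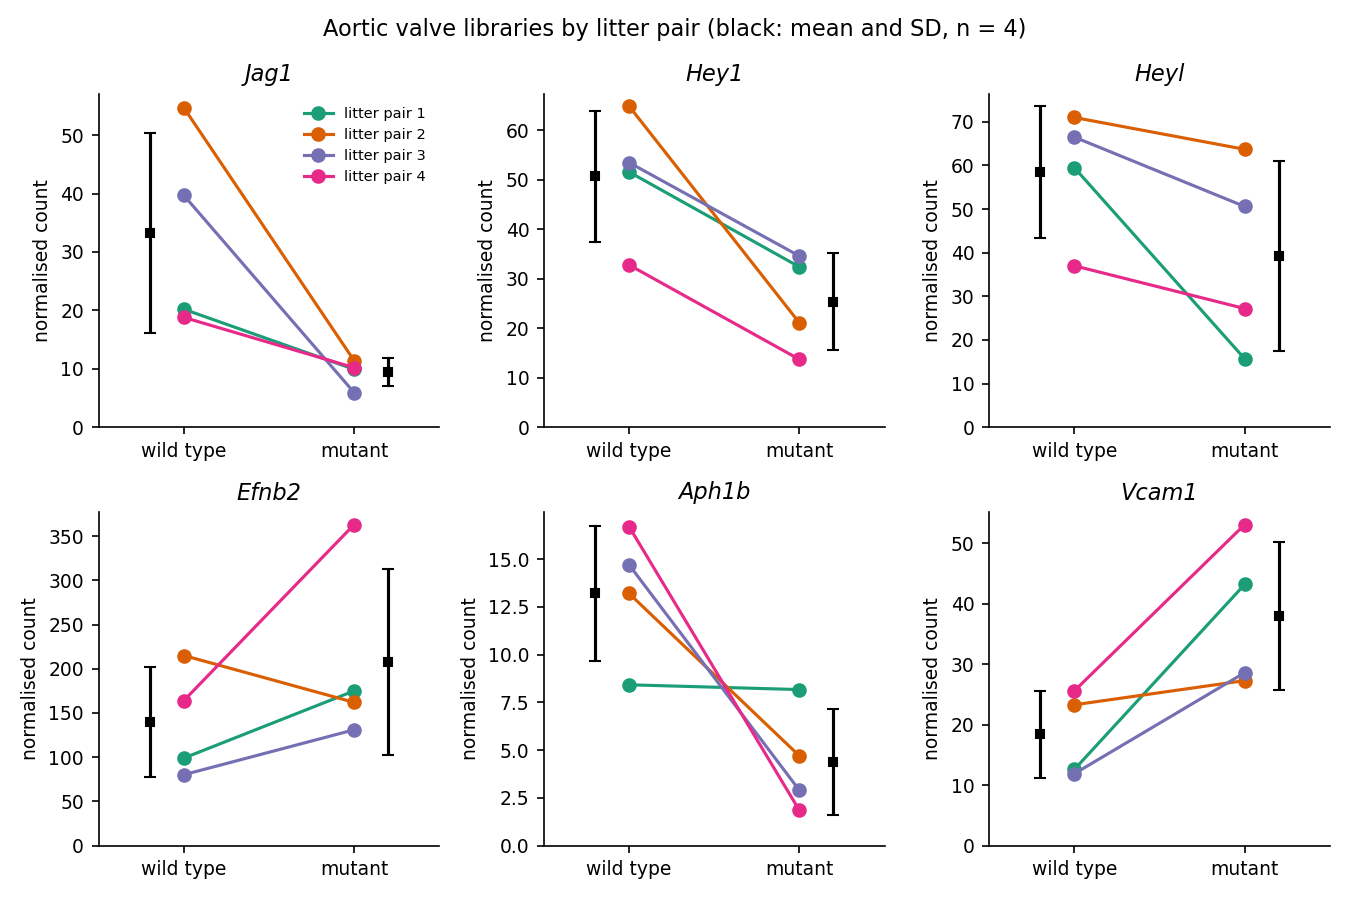
Normalised count (y axis, linear from 0) of 6 genes in the 4 wild-type and 4 mutant aortic libraries. Coloured lines join libraries of the same litter, and black squares with bars give the mean and SD of each group (n = 4). All 4 lines slope down for Jag1, Hey1, Heyl and Aph1b and up for Vcam1, while for Efnb2 pair 2 slopes down and the others up; groups are separate for Jag1, Aph1b and Vcam1.

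Of the genes that process the receptor or carry the signal, all 26 were tested, 17 lay above 0 and 9 below (median log2 difference 0.10), and 0 had an unadjusted p under 0.05 in either fit. Rbpj, which binds DNA in the complex that Notch activates, was 171, 84.0, 120 and 107 in wild type, against 142, 160, 124 and 99.8 in mutants, overlapping throughout. The smallest p in the list belonged to Rfng, a fringe enzyme that extends a sugar on Notch receptors. Rfng averaged 17.8 ± 3.62 (SD, n = 4) in wild type, up to 22.2, and mutant libraries 1 to 4 gave 5.69, 7.67, 17.4 and 11.5, lower in 3 of 4 pairs (log2 -0.78, SE 0.38, unadjusted p = 0.0663). Mutant 3 lay inside the wild-type range.

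Aph1b, an alternative Aph1 subunit of gamma-secretase, was among the 12 lower genes with the smallest p. Aph1b (ENSMUSG00000032375, chromosome 9, 66775202 to 66795490, minus strand) was 8.42, 13.2, 14.7 and 16.7 in wild type, against 8.17, 4.70, 2.90 and 1.85 in mutants. The groups did not overlap, though wild type 1 and mutant 1 were 0.04 apart on the log2 scale. Its log2 difference was -1.50 (SE 0.45, unadjusted p = 0.00681). The related subunit Aph1a was 13.0, 6.89, 11.7 and 10.5 in wild type, against 6.68, 11.9, 7.95 and 18.1 in mutants, with no common direction (log2 0.01, SE 0.40).

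Levels of several tissue markers differed more between libraries of 1 genotype than between the genotypes. A principal component analysis put 48.7% of the variance on its first axis. Wild type 2 and 4 and mutant 4 had high scores on it, and wild type 1 and 3 and mutant 1 low scores. Mutants 2 and 3 lay between (3.26 and -13). What sets this axis was not tested. Skeletal muscle markers, which a valve should lack, had mean log2 levels of 6.92, 2.10, 6.13 and 0.34 in wild-type libraries and 5.21, 5.47, 6.14 and 0.33 in mutant libraries. Tbx20, a transcription factor of the endocardial cushions that form valves, was 101, 1740, 123 and 1500 in wild type, against 102, 613, 763 and 1030 in mutants. It was thus present in every library and lowest in wild type 1 and 3 and mutant 1. Litter mates were close in muscle markers in pairs 3 and 4, the mutant was lower in pair 1, and pair 2 set a low wild-type against a high mutant library. Erythroid markers were highest in wild type 2 (mean log2 level 9.22, against 5.14 to 6.88 in the other 7 libraries).

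Compared within litters, the median cardiomyocyte marker was lower, and the median endothelial and neuronal marker higher, in the mutant of each pair. Some of the endothelial and neuronal pair medians were close to 0. Of 18 tested cardiomyocyte markers, 16 lay below 0 (median log2 difference -0.40), and with the litter block 6 had an unadjusted p under 0.05, all lower. Over all genes, 174 (1.26%) were lower and 345 (2.5%) higher at that p. The list's median was below 0 in each litter pair (-1.28, -0.73, -0.51 and -0.35), with 4, 8, 3 and 6 of the 18 markers above 0. Myh7, a myosin heavy chain of heart and slow muscle, was 26.8, 124, 156 and 43.2 in wild type, against 7.30, 18.0, 136 and 19.3 in mutants, lower in the mutant in 4 of 4 pairs (log2 -1.44, SE 0.80, unadjusted p = 0.0973, or 0.000634 with the block). Myl3, a ventricular myosin light chain, was also lower in each pair, at 17.2, 27.9, 132 and 4.21 in wild type, against 6.31, 8.93, 38.7 and 3.56 in mutants. Without the block 0 of the 18 had an unadjusted p under 0.05.

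Of 15 endothelial and endocardial markers, 12 lay above 0 (median 0.51). The mutant was higher in 4 of 4 pairs for 4 of them, against 5.98% of all genes. The list's median in pairs 1 to 4 was 0.10, 0.09, 0.65 and 0.41, with 9, 8, 14 and 14 of the 15 above 0. Pecam1, a junction protein of endothelial cells, was 46.7, 146, 34.1 and 254 in wild type, against 55.3, 163, 135 and 337 in mutants. The groups overlapped, wild type 1 and 3 being the lowest of all, but each mutant exceeded its litter mate (log2 0.69, SE 0.66, unadjusted p = 0.316, or 0.0208 with the block). Nos3, the endothelial nitric oxide synthase, was 7.20, 51.7, 6.08 and 76.5 in wild type, against 8.91, 65.6, 29.4 and 105 in mutants. Of 11 tested neuronal markers, 10 lay above 0 (median 1.12), with 6 higher at an unadjusted p under 0.05 with the block. The list's median in pairs 1 to 4 was 1.54, 1.94, 0.05 and 0.36, with 9, 11, 6 and 6 of the 11 above 0. Syt4, a synaptic vesicle protein, was 2.44, 0.470, 2.67 and 0.175 in wild type, against 9.03, 4.54, 4.67 and 4.55 in mutants, the 1 neuronal marker whose groups did not overlap (log2 1.58, SE 0.52, unadjusted p = 0.0107). In wild type 2 and 4, 1 read equals 0.157 and 0.175 normalised counts, so the Syt4 values there rest on few reads.

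Smooth muscle and pericyte markers leaned the other way, with 6 of 9 below 0 (median -0.26). The mutant was lower in 4 of 4 pairs for 3 of them, against 5.02% of all genes. Myh11, the smooth muscle myosin heavy chain, was 7.60, 22.9, 14.1 and 1.4 in wild type, against 0.495, 4.07, 13.5 and 0.142 in mutants (log2 -1.47, SE 0.89, unadjusted p = 0.127, or 0.0115 with the block). Macrophage markers were divided, with 10 of 20 above 0. Cd74, which serves antigen presentation, was 16.4, 2.82, 3.26 and 2.28 in wild type, against 0.619, 0.470, 0.252 and 1.99 in mutants. The groups did not overlap, but wild type 4 and mutant 4 were close (log2 -1.68, SE 0.60, unadjusted p = 0.0177). In mutant libraries 1 read equals 0.124 to 0.157 normalised counts, so the lowest values of Cd74 and Myh11 rest on few reads. The share of these cell types in each library was not measured, and its part in the gene differences above and below was not tested.

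**Figure D2:**
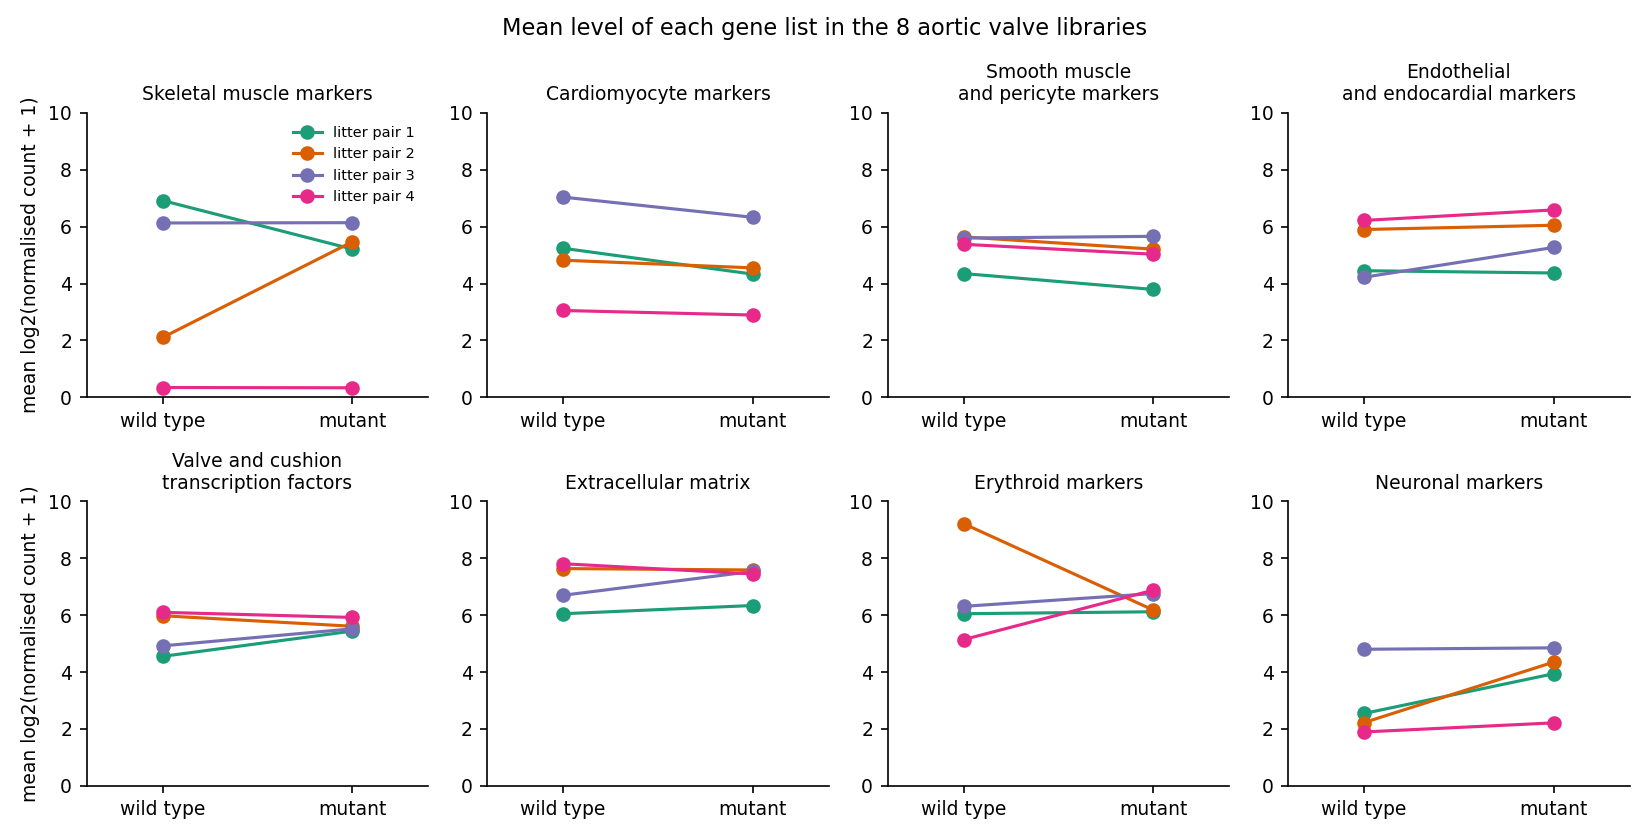
Mean log2(normalised count + 1) over the tested genes of 8 lists (y axis, 0 to 10) in each aortic library, with lines joining libraries of the same litter. Skeletal muscle markers span 0.33 to 6.92 and differ most in pair 2, cardiomyocyte markers are lower in the mutant of each pair, and neuronal markers are higher in the mutant of each pair.

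Genes higher in mutants were led, apart from the gene copies described below, by the ubiquitin ligase Neurl3. Neurl3 (ENSMUSG00000047180, chromosome 1, 36264597 to 36274679, minus strand), of the Neuralized family, was 1.22, 1.25, 1.48 and 1.05 in wild type, against 5.69, 10.2, 5.93 and 4.69 in mutants. Every mutant was above every wild type, on 6 to 10 reads per wild-type and 33 to 65 reads per mutant library (log2 1.71, SE 0.41, unadjusted p = 0.00152). Usp53, of the ubiquitin-specific protease family, was 7.06, 8.77, 3.41 and 8.25 in wild type, against 21.7, 14.3, 17.8 and 25 in mutants, again without overlap (log2 1.43, SE 0.38, unadjusted p = 0.00298). Slc7a8, an amino acid transporter, was 2.72, 2.82, 2.22 and 1.4 in wild type, against 4.70, 8.77, 6.81 and 7.82 in mutants (log2 1.28, SE 0.40, unadjusted p = 0.00865). These 3 genes were higher in the mutant in all 4 litters.

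Vcam1, an adhesion molecule that binds integrins, lies on chromosome 3 (ENSMUSG00000027962, 116109949 to 116129688, minus strand). It was 12.6, 23.3, 11.9 and 25.6 in wild type, against 43.2, 27.3, 28.6 and 53.1 in mutants. Mutant 2 lay just above the highest wild type, and pair 2 had the smallest difference (0.22, against 1.70, 1.2 and 1.02). The log2 difference was 1.03 (SE 0.35, unadjusted p = 0.0132). Sulf2, which removes sulphate from heparan sulphate chains outside the cell, was 45.6, 62.3, 53.6 and 93.7 in wild type, against 97.9, 119, 92.1 and 130 in mutants. Only mutant 3 fell below the highest wild type, and the 4 pairs differed by 0.46 to 1.08 (mean log2 0.81, SE 0.25, unadjusted p = 0.00867). Nt5e (CD73), which makes adenosine from AMP outside the cell, was 22.7, 16.3, 8.89 and 27.7 in wild type, against 23.1, 112, 109 and 37.4 in mutants, with the difference carried by mutants 2 and 3.

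Of all genes, 104 (0.753%) had every mutant above every wild type and 115 (0.833%) every mutant below. Those with a mean of at least 10 numbered 62 and 68. In addition to Usp53 and Vcam1, the higher ones with the largest differences included Zfp51, a zinc finger protein gene (log2 1.24, SE 0.41), and Arsb, a lysosomal sulphatase (log2 0.92, SE 0.37). They also included Uchl3, a deubiquitinating enzyme (log2 0.91, SE 0.44), Nipsnap1, a mitochondrial protein (log2 0.90, SE 0.32), and the nuclear protein gene Aff2 (log2 0.85, SE 0.27). Uchl3 was 25.6, 24.0, 25.5 and 25 in mutants, a narrow range, against 23.2, 11.4, 20.7 and 4.56 in wild type.

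Genes lower in mutants were led by Jag1, followed by Ccdc32 and Arhgap6. Ccdc32 was 19.3, 15.7, 17.9 and 12.5 in wild type, against 5.07, 6.27, 8.83 and 5.26 in mutants (log2 -1.25, SE 0.34, unadjusted p = 0.00393). Arhgap6, a GTPase-activating protein gene, was 16.2, 17.7, 19.3 and 14.2 in wild type, against 8.54, 5.48, 8.07 and 6.12 in mutants (log2 -1.16, SE 0.32, unadjusted p = 0.00442). For both genes every mutant lay below the wild-type range.

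Lmcd1, a LIM-domain cofactor that binds GATA factors (ENSMUSG00000057604, chromosome 6, 112273758 to 112330425, plus strand), was 38.3, 50.9, 28.2 and 54.0 in wild type, against 17.7, 17.9, 19.7 and 29.9 in mutants. Only mutant 4 reached the lowest wild type, and all 4 pairs were lower in the mutant (log2 -0.97, SE 0.30, unadjusted p = 0.00796). Mars, the methionyl-tRNA synthetase of the cytosol, was 51.1, 48.4, 44.3 and 46.5 in wild type, against 36.8, 27.4, 19.7 and 30.3 in mutants (log2 -0.75, SE 0.25, unadjusted p = 0.0122). Top1mt, the mitochondrial topoisomerase, was 9.64, 8.62, 7.56 and 6.49 in wild type, against 2.10, 3.60, 3.28 and 2.13 in mutants (log2 -1.27, SE 0.38, unadjusted p = 0.00665). Both had groups that did not overlap.

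Others among the 12 lower genes with the smallest p were the vesicle transport gene Trappc2 (log2 -1.13, SE 0.35), the zinc finger gene Zfp867 (log2 -1.07, SE 0.34), the kainate receptor gene Grik3 (log2 -1.45, SE 0.46) and the transporter gene Abca9 (log2 -1.06, SE 0.35). Further lower genes without overlap were Rsph3b of the ciliary radial spoke (log2 -0.94, SE 0.37), the RNA-binding protein gene Rbm38 (log2 -0.91, SE 0.34) and the small nucleolar RNA host gene Snhg3 (log2 -0.91, SE 0.36). They were joined by the nucleotidase gene Nt5c (log2 -0.89, SE 0.32), the topoisomerase gene Top3a (log2 -0.84, SE 0.31) and Rcc1l (log2 -0.82, SE 0.34).

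**Figure D3:**
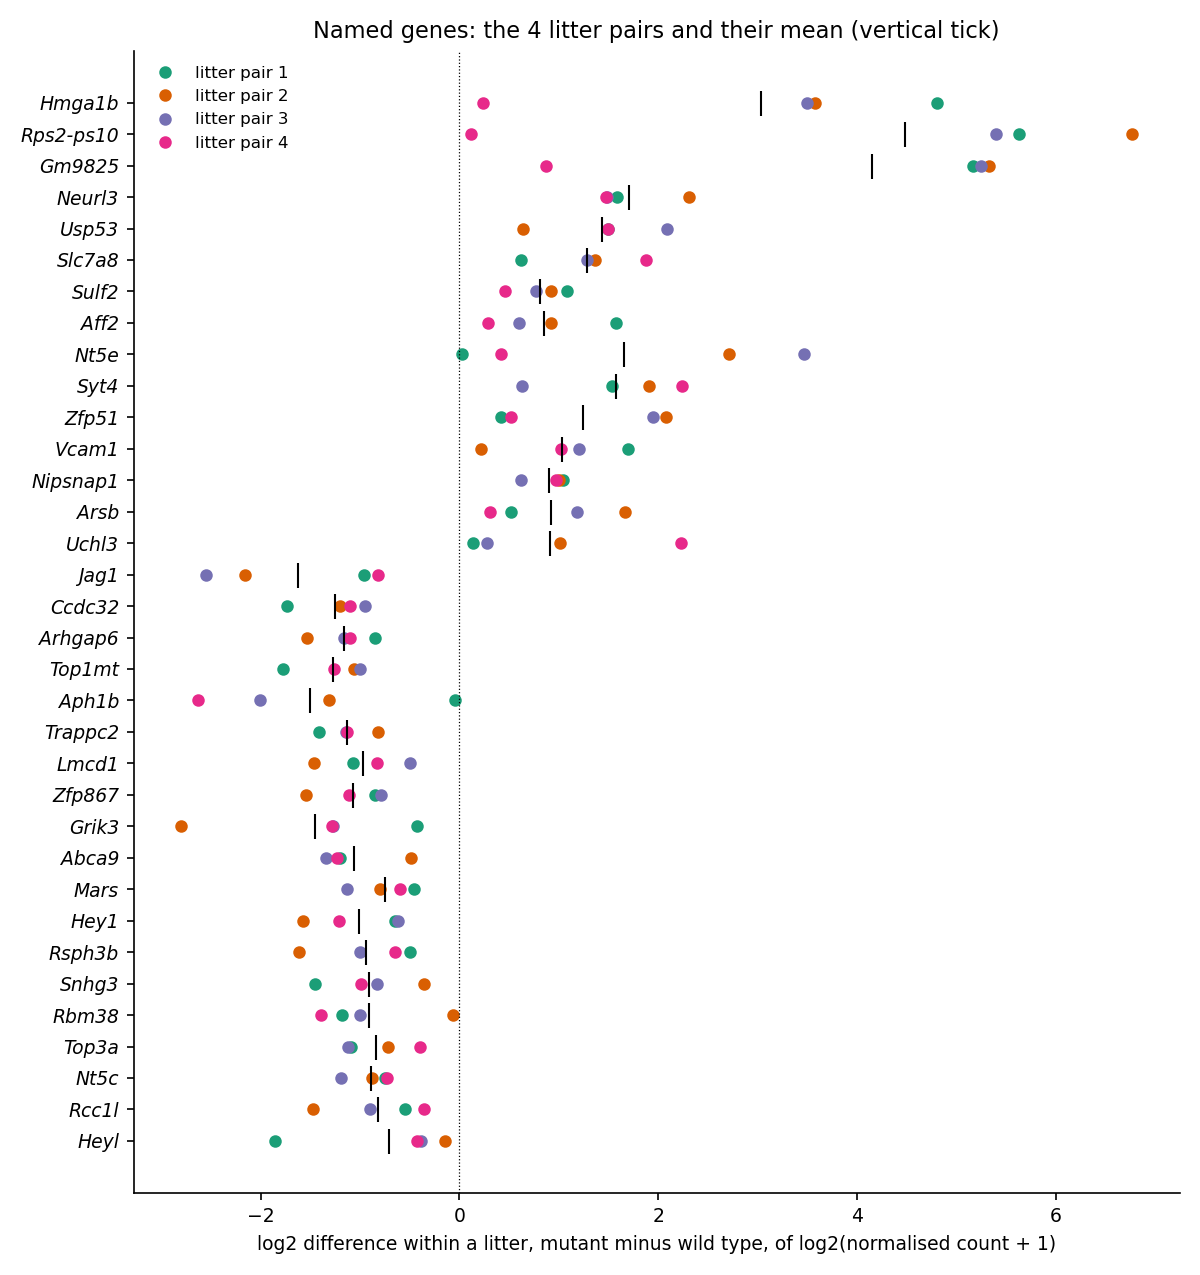
Log2 difference within each litter (coloured points, x axis, mutant minus wild type of log2(normalised count + 1)) and the mean of the 4 pairs (black tick) for named genes, higher ones above and lower ones below. Hmga1b, Rps2-ps10 and Gm9825 have 3 pairs beyond 3 and pair 4 under 1, and points for Ccdc32, Arhgap6 and Nipsnap1 lie close together.

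With the litter as a block in limma, the gene copies Gm9825 and Rps2-ps10, described below, had the smallest unadjusted p-values (9.93e-06 and 2.56e-05). Hmga1b was at 0.000111 and Atp6v0c-ps2 at 0.000875 in that fit. Deviations of litter mates correlated above 0 in each pair, but near 0 in pair 2, and some libraries of different litters correlated as strongly (wild type 3 with mutant 1 at 0.467, wild type 2 with mutant 4 at 0.485). The median SE of a log2 difference was 0.40 without and 0.34 with the block. Adamts5, Aqp1, Pthlh, Adamts8, Slco2a1 and Tgfbi were picked after their values were seen, from the 20 genes with the smallest p in that fit. Adamts5, a protease that cuts the proteoglycan versican during valve growth, was 26.3, 83.5, 31.4 and 174 in wild type, against 75.9, 173, 95 and 227 in mutants. The groups overlapped, and each mutant exceeded its litter mate by 0.38 to 1.57 (log2 1.12, block SE 0.22, unadjusted p = 0.000188 with the block, limma adjusted p = 0.519). Aqp1, a water channel of endothelial cells, was 20.2, 151, 27.6 and 295 in wild type, against 68.1, 258, 110 and 375 in mutants, with the same arrangement (log2 1.19, unadjusted p = 0.000287 with the block). Pthlh, a secreted peptide hormone, was 5.57, 8.62, 6.82 and 36.1 in wild type, against 14.4, 48.1, 16.5 and 72.3 in mutants (log2 1.43, unadjusted p = 0.000725 with the block).

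The protease gene Adamts8, the prostaglandin transporter gene Slco2a1 and the matrix gene Tgfbi were also higher in the mutant in 4 of 4 pairs, with block p-values of 0.000313, 0.00106 and 0.00103. Their log2 differences were 1.79, 1.23 and 1.27. Klf2, an endothelial transcription factor that responds to blood flow, was 9.37, 56.9, 12.2 and 65.3 in wild type, against 12.7, 76.3, 52.0 and 121 in mutants. It stood in the list of immediate-early and flow-responsive genes and was higher in the mutant of each pair (log2 0.93, unadjusted p = 0.00656 with the block), while 12 of the 20 tested genes of that list lay above 0 (median 0.05).

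Transcription factors of the valves and cushions lay above 0 for 16 of 21 tested genes (median log2 difference 0.21), with 1 at an unadjusted p under 0.05. That gene was Foxc1, a forkhead factor of the outflow tract, at 14.3, 46.2, 27.6 and 57.0 in wild type, against 53.7, 60.3, 45.2 and 106 in mutants. Mutant 3 and mutant 1 lay inside the wild-type range and all 4 pairs were higher in the mutant (log2 0.95, SE 0.42, unadjusted p = 0.0454, or 0.00280 with the block). Sox9, needed for valve mesenchyme, was 62.6, 172, 79.4 and 121 in wild type, against 250, 121, 130 and 107 in mutants, with mutant 1 far above its group (log2 0.50, SE 0.35). Nfatc1, an endocardial factor of valve remodelling, was 88.3, 296, 67.1 and 338 in wild type, against 118, 255, 197 and 512 in mutants (log2 0.58, unadjusted p = 0.326, or 0.0272 with the block).

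The list's median was 0.41, -0.51, 0.69 and -0.05 in the 4 pairs, so litters 1 and 3 stood against litter 2. Extracellular matrix genes were likewise highest in litter 3 and below 0 in litter 2 (0.26, -0.44, 1.03 and -0.44). Of 39 such genes 27 lay above 0 (median 0.20). Without the litter block 0 of them had an unadjusted p under 0.05, and with it 3 were higher at that p and 0 lower. Thbs1, a matrix glycoprotein, was 48.1, 506, 92.0 and 498 in wild type, against 83.7, 350, 574 and 811 in mutants, with most of the difference in litter 3. Among 10 tested adhesion and chemokine genes 8 lay above 0 (median 0.30). Vcam1 was the 1 with an unadjusted p under 0.05 without the block, while with it 3 were higher at that p and 0 lower.

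The growth factor pathways showed smaller medians. For the BMP pathway 13 of 21 lay above 0 (median 0.09), and for the TGF-beta pathway 7 of 12 (median 0.07). Without the litter block, 0 genes of either list had an unadjusted p under 0.05. With the block, 2 genes of each list were higher at that p and 0 lower, against 2.5% and 1.26% of all genes. For the EGF receptor pathway 6 of 10 lay above 0 (median 0.11), with 0 at that p in both fits. Bmp4, a ligand of the outflow tract, was 19.6, 20.2, 23.3 and 40.2 in wild type, against 21.5, 34.5, 38.7 and 82.6 in mutants, higher in the mutant of each pair (log2 0.65, unadjusted p = 0.132, or 0.0257 with the block). Tgfbr2, the type II TGF-beta receptor, was 69.4, 61.4, 77.1 and 80.2 in wild type, against 119, 98.8, 76.7 and 103 in mutants, with mutant 3 inside the wild-type range (log2 0.45, SE 0.21, unadjusted p = 0.0565).

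Most genes of the proliferation and oxidative phosphorylation lists lay below 0, by small amounts. Of 35 proliferation genes, 23 lay below 0 (median -0.10) and 0 had an unadjusted p under 0.05 without the litter block. The mutant was lower in 4 of 4 pairs for 3 of them, against 5.02% of all genes. Those 3 were Mcm5, Mcm6 and Mcm7, subunits of the helicase that opens DNA for replication. Mcm7 was 83.2, 97.9, 96.6 and 94.2 in wild type, against 65.8, 73.0, 67.1 and 75.8 in mutants, without overlap (log2 -0.40, SE 0.19, unadjusted p = 0.0562). Mki67, a marker of cycling cells, was higher in the mutant of each pair (log2 0.20, SE 0.26). D cyclins and CDK inhibitors had a median of -0.08 over 8 genes.

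Of 51 oxidative phosphorylation genes 42 lay below 0 (median -0.13), with 0 at an unadjusted p under 0.05 without the litter block. The mutant was lower in all pairs for 8 of them, against 5.02% of all genes. Atp5g1, of the membrane ring of ATP synthase, was 138, 67.4, 162 and 67.9 in wild type, against 54.6, 44.8, 108 and 52.3 in mutants (log2 -0.71, SE 0.36, unadjusted p = 0.00484 with the block). Its near-identical copy Gm10039, described below, was higher in 3 of 4 pairs, so its own count is uncertain. Transcripts encoded in the mitochondrion lay below 0 for 14 of 15 (median -0.10). The oxidative phosphorylation median was below 0 in pairs 1, 3 and 4 and above 0 in pair 2 (0.14). The mutant library of pair 2 also held more skeletal muscle signal, and a link between them was not tested. Glycolysis genes had a median of 0.01 over 19 genes.

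Sterol synthesis genes had a median of 0.06, with 13 of 24 above 0. Msmo1, a sterol oxidase, was 10.6, 12.1, 19.0 and 12.8 in wild type, against 17.1, 28.8, 27.0 and 30.6 in mutants (log2 0.88, SE 0.32, unadjusted p = 0.0181). Sqle, squalene epoxidase, was also higher in the mutant of each pair (log2 0.61, SE 0.29), while Pmvk, phosphomevalonate kinase, was lower in each (log2 -0.87, SE 0.43).

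**Figure D4:**
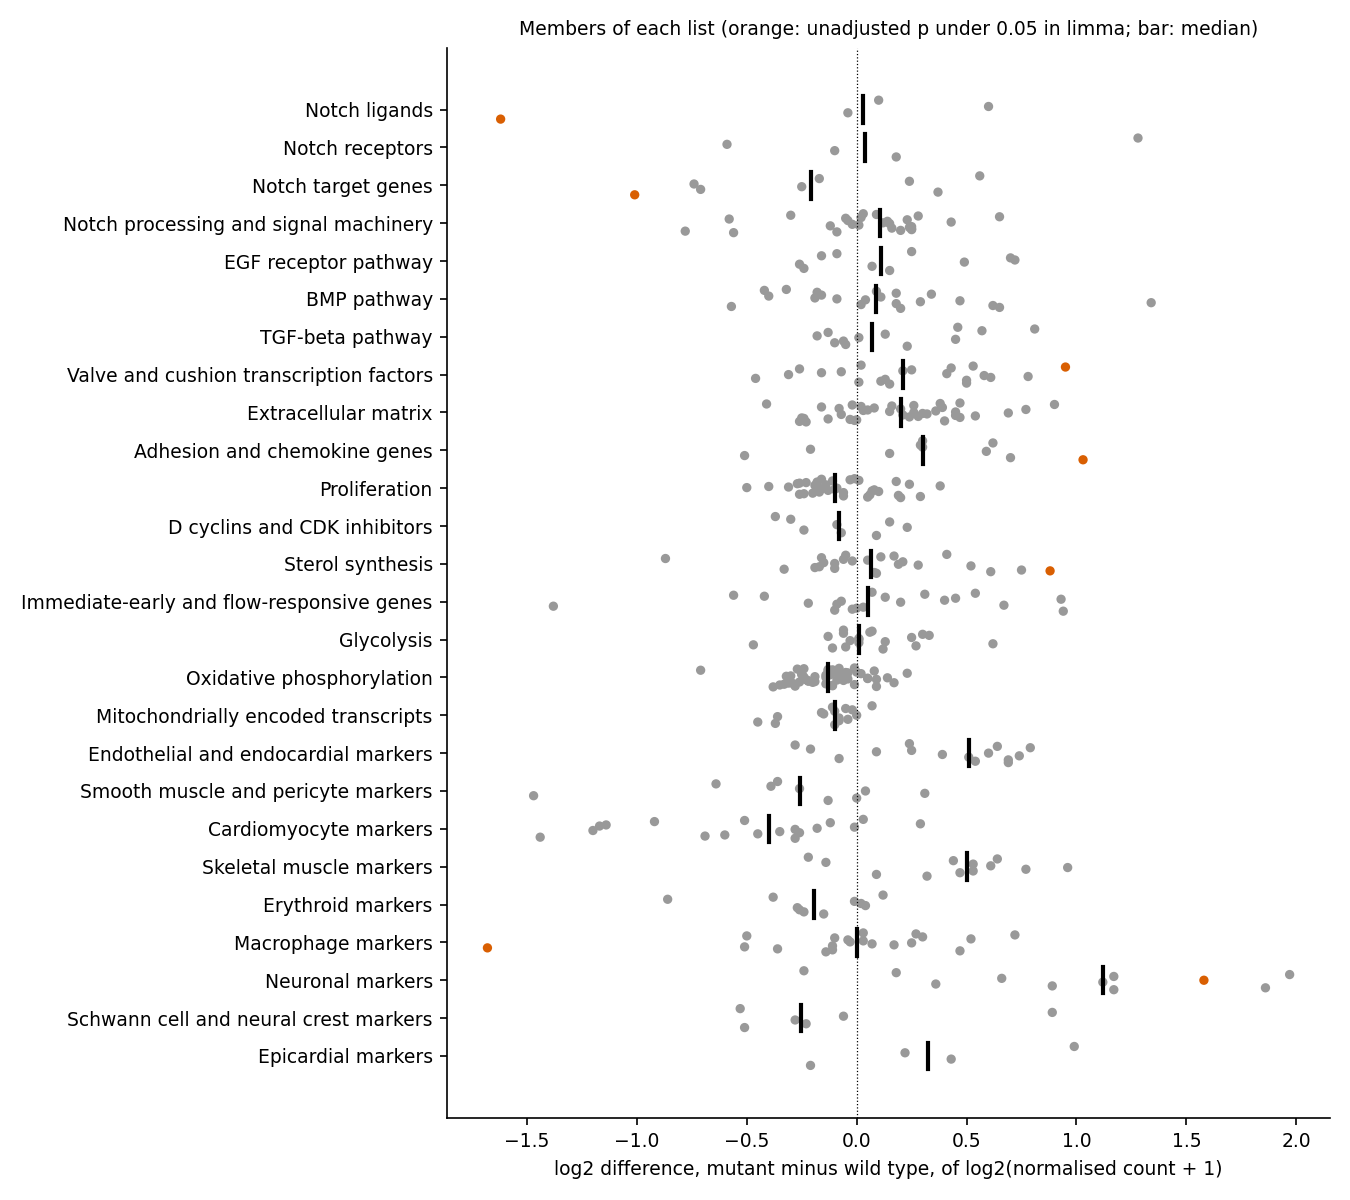
Log2 difference (x axis, mutant minus wild type of log2(normalised count + 1)) of every tested member of 26 gene lists, one point per gene, orange where the unadjusted limma p is under 0.05, with a bar at the list's median. The neuronal (1.12), endothelial (0.51), skeletal muscle (0.50) and cardiomyocyte (-0.40) lists have the medians farthest from 0, and the other 22 lie between -0.26 and 0.32.

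Without the litter block, the 3 smallest p-values of the comparison belonged to near-identical copies of other genes. They are shown with sequence because reads of a copy and of its parent can be told apart only where their letters differ. Rnps1, a splicing factor gene (chromosome 17, 24414565 to 24425901, plus strand, GRCm38), has a processed pseudogene, Gm9825 (chromosome 6, 7982541 to 7983383, minus strand), 99.4% identical over 843 aligned bases with 5 differences. Atp6v0c, a proton pump subunit gene (chromosome 17, 24163866 to 24169702, minus strand), has Atp6v0c-ps2 (chromosome 6, 37806086 to 37806550, plus strand), 99.8% identical over 465 bases with 1 difference. Below are 60-base windows of the coding sequence from GENCODE transcripts on GRCm38, 5′ to 3′ along the parent transcript, with the differing bases in capitals.
Rnps1: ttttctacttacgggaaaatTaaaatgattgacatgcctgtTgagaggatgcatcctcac
Gm9825: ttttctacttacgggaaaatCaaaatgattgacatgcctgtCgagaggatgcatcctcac
Atp6v0c: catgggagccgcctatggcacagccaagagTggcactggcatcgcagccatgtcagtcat
Atp6v0c-ps2: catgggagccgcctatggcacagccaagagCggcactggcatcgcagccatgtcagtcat

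Gm9825 was 0.272, 0.0, 0.0 and 29.5 in wild type, against 44.8, 39.2, 37.0 and 54.6 in mutants (log2 4.15, SE 0.95, unadjusted p = 0.00108). Rps2-ps10, a pseudogene of the ribosomal protein gene Rps2 that is 99.4% identical to it, was 1.49, 0.0, 1.78 and 64.6 in wild type, against 123, 108, 117 and 70.3 in mutants (log2 4.48, SE 1.01, unadjusted p = 0.001). Hmga1b, an expressed copy of the chromatin protein gene Hmga1 that is 99.8% identical, was 0.951, 1.41, 3.70 and 11.9 in wild type, against 53.8, 27.7, 52.1 and 14.2 in mutants (log2 3.03, SE 0.63, unadjusted p = 0.000556). For each of the 3 copies the groups did not overlap, and wild type 4 stood above the other wild types. Pair 4 had the smallest difference in each (0.87, 0.12 and 0.24). On recovered reads the log2 differences of Gm9825 and Rps2-ps10 were smaller, 2.59 and 2.64 in edgeR and 2.57 and 2.63 in DESeq2. Atp6v0c-ps2 was 2.17, 8.15, 9.48 and 64.0 in wild type, against 50.2, 43.4, 44.1 and 53.6 in mutants, where wild type 4 was the highest library of all (log2 2.04, SE 0.71, unadjusted p = 0.0153).

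Some genes passed when a library or a litter was left out. Without wild type 4, Rps2-ps10 and Gm9825 passed the threshold in limma, each with an adjusted p of 0.000378. Without litter 4 and with the litter block, Hmga1b (adjusted p = 0.00917), Rps2-ps10 (7.28e-05) and Gm9825 (0.00118) passed. Without litter 3 and with the block, the pseudogenes Gm10259 (of Kpna2) and Gm10039 (of Atp5g1) passed (adjusted p = 0.00399 and 0.00566). Gm10259 was 0.0, 6.89, 0.0 and 0.0 in wild type, against 27.7, 76.1, 0.0 and 19.6 in mutants, so that litter 3 was the one with no reads in either library.

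The parents Rps2, Hmga1 and Rnps1 had log2 differences below 0, though not all of them in every pair. Atp6v0c is given below only as a sum with its copy. Rps2 was 471, 335, 588 and 169 in wild type, against 261, 217, 211 and 140 in mutants, lower in the mutant of each pair (log2 -0.81, SE 0.36, unadjusted p = 0.0476). Hmga1 was 135, 66.7, 134 and 23.2 in wild type, against 83.5, 54.7, 36.8 and 28.9 in mutants. Hmga1 was lower in 3 of 4 pairs (log2 -0.62, SE 0.53). Rnps1 was 188, 144, 176 and 72.3 in wild type, against 101, 154, 99.6 and 86.8 in mutants, lower in pairs 1 and 3 (log2 -0.34, SE 0.32). Summing each copy with its parent before the test, a step added after seeing the data, left log2 differences of -0.01 (SE 0.46) for Hmga1b and Hmga1, -0.34 (SE 0.31) for Rps2-ps10 and Rps2, 0.04 (SE 0.24) for Gm9825 and Rnps1, and -0.01 (SE 0.29) for Atp6v0c-ps2 and Atp6v0c. The sums of mutant and wild-type libraries overlapped in all 4 cases.

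The 4 parents lie close together on chromosome 17, the chromosome of Nkx2-5 (26838664 to 26845009, minus strand), whose control elements drive the Cre. Hmga1 is 0.718 Mb, Rps2 2.12 Mb, Rnps1 2.42 Mb and Atp6v0c 2.68 Mb from Nkx2-5. A search added after seeing these 4 covered 271 genes, the tested pseudogenes and Hmga1b. Hmga1b was the only protein-coding copy in it and was included because its values were known. The search found 170 with a parent at 97% identity or more over at least 200 bases. Of the 6 copies whose parent lies within 5 Mb of Nkx2-5, 4 had an unadjusted p under 0.05 (median log2 difference 2.53). Of the 164 with a parent elsewhere, 5 did (median 0.00522), also a larger share than the 1.43% of all genes. With the litter block the counts were 4 of 6 and 25 of 164, both larger shares than the 3.76% of all genes. The 4 near Nkx2-5 are the ones that prompted the search, so the comparison with the 164 cannot test a link to that region. The remaining 2 of the 6, Rpl10a-ps1 and Gm9761, had log2 differences of -0.0691 and -0.048. Their parents, Rpl10a and Srsf3, lie 1.49 and 2.2 Mb from Nkx2-5, nearer than Rnps1 and Atp6v0c. Rpl10a-ps1 is 100% identical to Rpl10a over 654 aligned bases, so reads there cannot be told apart by sequence. Gm9761 was low, with 0 in its lowest mutant and at most 6.52 in wild types 1 to 3 (SE 0.794). These 2 copies therefore cannot test a link to that region either. The sources used here do not say how the counting divided reads between copy and parent, and whether the embryos differed in sequence near Nkx2-5 was not tested.

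**Figure D5:**
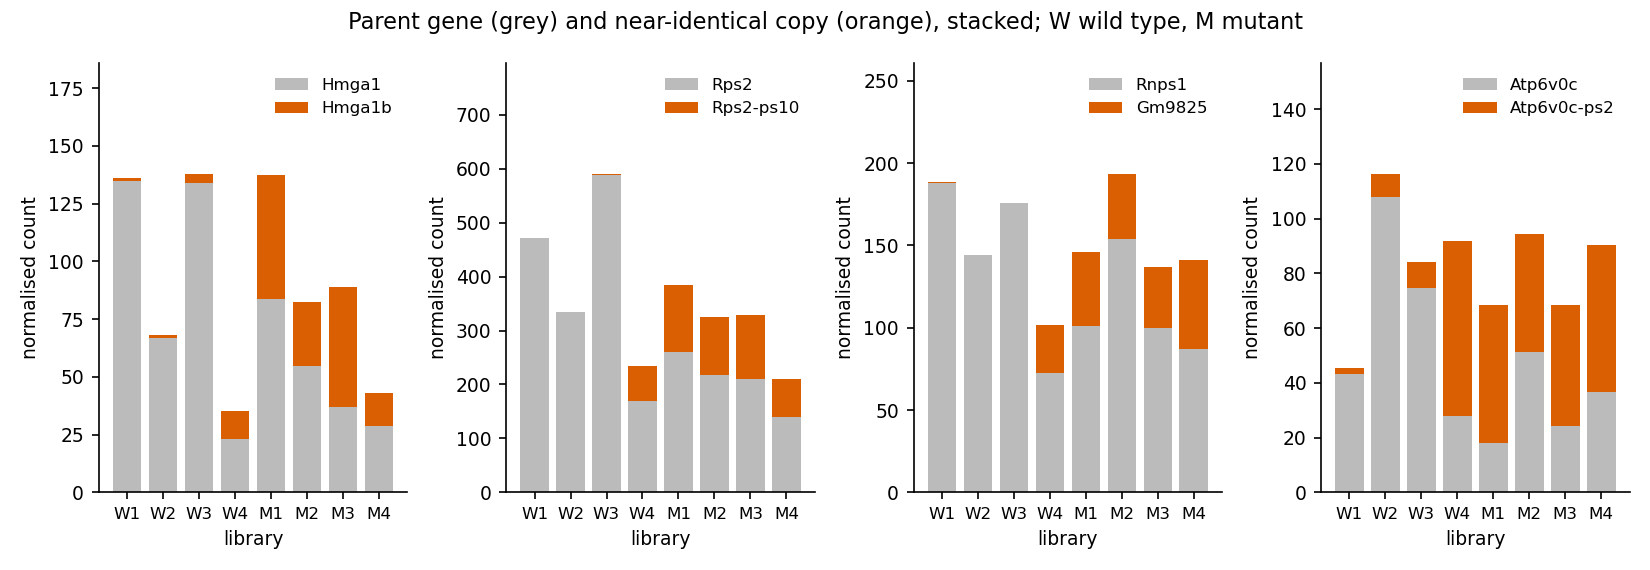
Normalised count of 4 parent genes (grey) and their near-identical copies (orange), stacked from 0, in wild-type (W1 to W4) and mutant (M1 to M4) aortic libraries. The orange part is smaller in W1 to W3 than in W4 and M1 to M4 for Rps2-ps10, Gm9825 and Atp6v0c-ps2. For Hmga1b it is largest in M1 to M3 and small in W4 (11.9) and M4 (14.2). The total height differs less between the genotypes.

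Genes near Nkx2-5 were otherwise close to the background. Within 5 Mb of it 2 of 171 tested genes (1.17%), Stub1 and the parent gene Rps2, had an unadjusted p under 0.05, against 1.43% of all genes, and within 10 Mb 5 of 314 (1.59%). Within 5 Mb of Jag1 there were 3 of 28 (10.7%), Jag1 itself, Prokr2 and Pak7, and within 10 Mb 4 of 119 (3.36%). Stub1, Prokr2 and Pak7 were named after their values were seen.

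The genotype difference was also set against that in the pulmonary valve, whose libraries were prepared in another batch, so each genotype difference was taken within its own batch. Of the 4 pulmonary litters, 3 also gave aortic libraries, and the labels do not say whether the embryos were the same, so the pulmonary values are no independent repeat. With limma 0 of 13813 genes passed the threshold for a different genotype effect in the 2 valves (smallest adjusted p = 0.9999), and 257 (1.86%) had an unadjusted p under 0.05. For Jag1 the difference between the valves was 0.12 (SE 0.63), with log2 differences of -1.62 in the aortic and -1.74 in the pulmonary valve. Hey1 and Heyl were lower in the mutant of 4 of 4 pairs in the pulmonary valve too, with log2 differences of -0.67 and -0.62. Lmcd1 and Arhgap6, picked from the lower genes named above, were also lower in 4 of 4 pulmonary pairs (log2 -0.90 and -0.80). How many of all genes were lower in 4 of 4 pulmonary pairs was not counted.

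Of the 198 genes with an aortic p under 0.05, 61.6% had the same sign in the pulmonary valve, against 51.8% of all tested genes. The share was 66.1% for the 112 higher genes among them and 55.8% for the 86 lower ones. The 219 genes whose aortic groups did not overlap shared the sign in 53.9%. Vcam1 had a pulmonary log2 difference of -0.15, with an unadjusted p for the difference between valves of 0.0289. Pulmonary log2 differences of Neurl3, Slc7a8, Aph1b and Rfng were -0.08, -0.28, 0.59 and 0.72, and these were not tested on their own. For the difference between valves, limma gave these 4 genes unadjusted p-values of 0.0120, 0.0275, 0.0237 and 0.0111. None of these passed after adjustment. Among the copies, Rps2-ps10 (3.74), Gm9825 (3.71) and Hmga1b (1.8) were higher in the mutant of 4 of 4 pulmonary pairs, while Atp6v0c-ps2 (0.23) was higher in 2 of 4.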

How the data were processed

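RNA was sequenced from 8 aortic and 8 pulmonary valve samples. Per the submitters' processing notes, CASAVA 1.8.2, cutadapt 1.6, FastQC and RSEM 1.2.3 were used with build GRCm38. How values were normalised and which low genes were dropped is not stated there. The deposited values form a normalised signal per gene and library. They are whole multiples of 1 step (100% whole within 0.05 read), and their scaling differs by at most 0.000333% from trimmed-mean factors of edgeR 4.0.16. The labels do not say whether libraries are separate embryos, so p-values measure the spread between these samples. No 2 replicates agreed within sampling noise.

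The test was limma 3.58.1 (R 4.3.3) on log2(value + 1) with a mean-variance trend, over the 8 aortic libraries, two-sided, with Benjamini-Hochberg adjustment at 0.05. It was tested on simulated data. Litter IDs in the labels pair the libraries, and deviations of litter mates correlated at 0.479, 0.0106, 0.21 and 0.647. Other fits used edgeR and DESeq2 1.42.0 on recovered reads. The difference between valves was an interaction over 16 libraries. Symbols came from GENCODE M21 by gene ID, and 184 IDs had none. Older list symbols were matched through RefSeq synonyms. Copies were matched to parents by sequence.

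Named were Jag1, tested Notch genes, the 12 smallest p in each direction, up to 4 members per other list, genes past the threshold in any fit, and the 10 largest differences in each direction among genes with a mean of at least 10, no overlap and 4 pairs one way. Not all are printed, and predicted genes were left out unless past the threshold. Members and lists were chosen with earlier results of these data known. Genes named outside that rule, and the search for copies, were chosen after seeing the values.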

Additional observations from a re-analysis of the deposited data

Results flagged for a closer look

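Among 122 groups of 4 libraries examined (35 named genes and 26 list means in each genotype), 6 had 1 library set apart from the other 3 by a gap above the critical value of Dixon's test on the log2 scale. Chance flags about 1 in 20 such groups. Gm9825 was 29.5 in wild type 4 and at most 0.272 in the other wild types. Gm10259 was 6.89 in wild type 2 and 0.0 in the other wild types. Trappc2 was 10.2 in wild type 4 and 12.7 to 13.2 in the others. In mutants, the mean log2 level of the matrix genes was 6.34 in library 1 and 7.45 to 7.59 in the others, and that of the EGF receptor pathway was 4.15 in library 1 and 4.99 to 5.14 in the others. Skeletal muscle markers were at 0.33 in mutant 4 and 5.21 to 6.14 in the other mutants.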

How the results depend on the processing

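Library number and the uneven tissue marker levels of the libraries limit this comparison. Which genes pass is decided by 1 library or litter, and depth sets a floor for low genes such as Neurl3. The count of genes past the threshold was 0 in each fit over all 8 libraries. It ranged from 0 to 2 when 1 library was left out (2 without wild type 4). With the replicate block and 1 litter left out it ranged from 0 to 3 (2 without litter 3, 3 without litter 4). The count at an unadjusted p under 0.05 (198) was 519 with the litter as a replicate block, 395 in edgeR with the block, 488 with library weights, 546 with mean skeletal marker level as covariate and 96 among genes with a mean of at least 10. It ranged from 166 to 322 when 1 library was left out, and with the replicate block and litters 1 to 4 left out in turn it was 512, 743, 591 and 418. The block changed no call of Jag1. Jag1 ranged from -1.91 to -1.31 over all alternatives and passed adjustment in none. Genes past the threshold for a difference between the valves numbered 0 in all fits run. Alternatives were computed for 34 genes besides Jag1: those named for the smallest p, for groups without overlap or for passing in some fit, with Hey1 and Heyl. Of these, 2 changed direction, both when copy and parent were summed: Hmga1b to -0.01 and Rps2-ps10 to -0.34. Atp6v0c-ps2, outside the 34, went to -0.01 in that step. In all, 7 of the 34 moved by over 1.5 times in some setting: the 3 copies, Gm10259 (1.56 with library weights, 5.42 in edgeR with the replicate block), Heyl (-0.35 without mutant 1), Nt5e (1.05 with the block and without litter 3) and Uchl3 (0.48 without wild type 4). Of 621 list medians under alternatives, 14 moved by more than the spread of the 4 pair medians.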
